A study of Mus musculus with 2 samples.

Results

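Basal cells of the mouse mammary gland, grown into 3D colonies with or without the cytokine TNF-α, were compared for the genes of 7 solute carrier families, SLC1, SLC3, SLC6, SLC7, SLC36, SLC38 and SLC43, most of whose members carry amino acids across membranes. The members were taken by gene symbol, which gave 63 of the 49492 genes counted, without antisense transcripts or pseudogenes. The rule itself uses no measured value, but the families were picked with earlier results of these data known. The rule follows family numbers, so the 63 genes also hold carriers of other substrates, such as Slc6a2, Slc6a3 and Slc6a4 for monoamines, Slc6a8 for creatine and Slc43a3 for nucleobases. Both groups were wild-type primary epithelial cells, sorted as basal cells from the glands of adult female mice and grown in 3D for 10 days according to the series description. By flow cytometry, the paper found mostly luminal cells in control colonies grown from sorted basal cells. It reported a higher basal share in colonies grown with TNF-α. The libraries thus cannot be taken as RNA of basal cells alone. The TNF-α group received recombinant mouse TNF-α at 10 ng/mL, and the control group received no treatment. Each group was 1 RNA-seq library, so no difference given here has a replicate check and differences between single cultures cannot be told apart from an effect of TNF-α. Total gene counts were 44462275 for the control library and 53487087 for the TNF-α library.

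Amino acids cannot cross the plasma membrane without carriers. Some carriers, such as those of SLC1 and most of SLC6 and SLC38, use the sodium gradient to concentrate amino acids inside the cell. Others exchange 1 amino acid for another, and the best known exchangers are heteromers of an SLC7 light chain, which does the transport, bound to an SLC3 heavy chain, which brings it to the membrane. Carriers on the lysosome, such as those encoded by Slc38a9 and Slc36a1, connect stored amino acids to the growth kinase complex mTORC1. Slc7a11 encodes xCT, the light chain that takes up cystine in exchange for glutamate and so supplies cysteine for glutathione. In the mammary gland these carriers also serve milk protein synthesis.

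The promoters of Slc7a11 and Slc7a8 are shown because Slc7a11 stands for stress-regulated amino acid uptake and Slc7a8 had the largest ratio of the 44 genes compared. Each sequence holds the 250 bases before the RefSeq start site in GRCm38.p6, 5′ to 3′ on the strand of the gene. The Slc7a11 window lies at chr3:50443614-50443863 and the Slc7a8 window at chr14:54781887-54782136, both on the minus strand. Capitals mark the ATF4 letters TGATGNAA on either strand, where N is any base.
Slc7a11: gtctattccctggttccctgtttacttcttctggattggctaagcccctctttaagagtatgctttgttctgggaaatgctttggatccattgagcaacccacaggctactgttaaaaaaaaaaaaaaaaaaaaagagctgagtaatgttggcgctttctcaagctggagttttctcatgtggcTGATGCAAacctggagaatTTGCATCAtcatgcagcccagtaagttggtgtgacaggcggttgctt
Slc7a8: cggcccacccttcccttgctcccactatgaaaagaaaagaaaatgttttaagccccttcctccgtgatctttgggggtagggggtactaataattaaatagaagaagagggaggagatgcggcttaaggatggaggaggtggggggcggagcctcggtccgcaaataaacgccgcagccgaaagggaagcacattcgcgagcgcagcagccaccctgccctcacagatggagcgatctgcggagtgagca
The Slc7a11 window held these letters at 2 places, on opposite strands, which begin 66 and 47 bases before the start, while the Slc7a8 window held none. Of 32851 RefSeq windows of this length, 3.45% held them at least once. A promoter was found for 45 of the 63 members, and 3 of these held the ATF4 letters, in Slc7a11, Slc7a7 and Slc6a21. The RefSeq start used for Slc6a21 lies 5360 bases from the 5′ end of the gene as counted. For Slc3a2, whose window held the HIF letters, this distance was 9472 bases. The NRF2 letters TGACNNNGC were in 6 of the 45 windows (10.2% of all windows), the NF-κB motif in 5 (7.25%) and the HIF letters ACGTG in 15 (16.6%). The Slc7a8 window held none of the 4 motifs. No promoter was found for Slc38a1, Slc38a3 and Slc43a3, the other genes called higher below, so they were not searched. The same holds for Slc6a2, called lower below. The window of Slc1a1, called lower below, held the NF-κB motif 111 bases before the start. A match of letters is a description and does not show that a factor binds.

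Of the 63 genes, 44 had at least 10 counts over both libraries and were compared. The log2 ratio, TNF-α over control, was computed from CPM (counts relative to library size, scaled with the TMM method) after adding a prior count of 2. Calls needed a fold above 2 together with a test on the reads, a test that sets 1 library against the other and says nothing of the conditions. The 95% interval beside a ratio covers counting error only, since 1 library per group leaves the spread between cultures unmeasured. It takes each read as an independent draw. Reads copied by PCR, or both reads of a pair counted separately, would make it too narrow, and neither was tested. By this rule Slc7a8, Slc43a3, Slc38a1 and Slc38a3 were called higher with TNF-α, and Slc6a2 and Slc1a1 were called lower. In a bulk library, fewer cells of a type and less RNA per cell cannot be told apart. The 4 genes called higher were 9.09% of the members compared, beside 6.89% of all 20771 genes compared, and the 2 called lower were 4.55%, beside 5.53% of all genes. Both shares were close to those of all genes. Among genes with at least 200 counts over both libraries, 3 of 29 members were called higher (4.01% of all 13609 such genes) and 1 was called lower (2.87% of all such genes).

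The members as a group stood near the middle of all genes, and individual carriers moved both ways. The median log2 ratio of the 44 members was -0.04, beside 0.0038 for all genes compared, with 21 members above 0 and 23 below. The counting interval, with each read taken as independent, lay wholly above 0 for 13 members and wholly below 0 for 15. Of all 20771 genes compared, it lay wholly above 0 for 5994 and wholly below 0 for 5777. For 24 members the whole interval lay within a fold of 2 in either direction. In sum the 63 genes took 1273 CPM without and 1204 CPM with TNF-α.

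**Figure D1:**
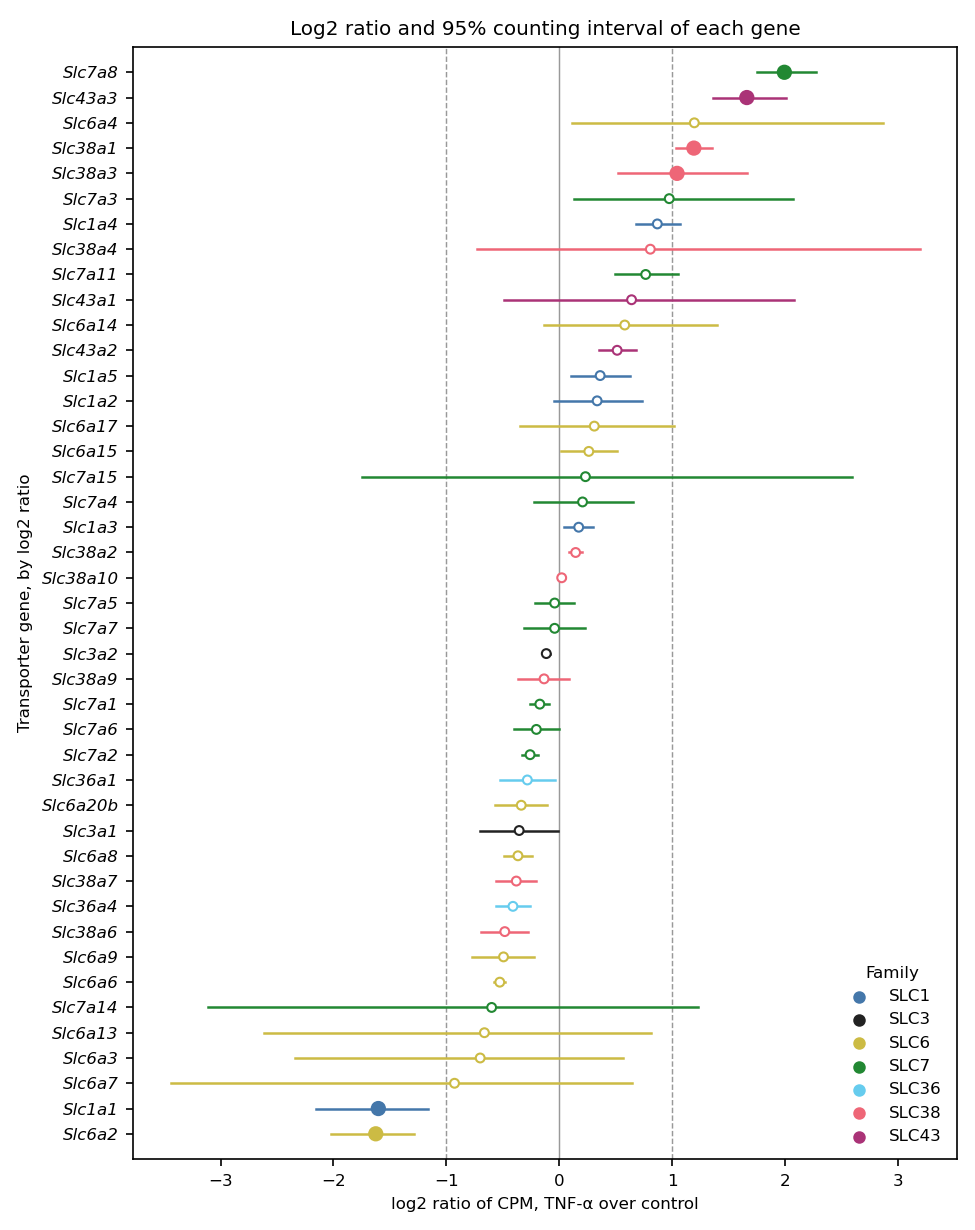
Log2 ratio of CPM, TNF-α over control, of the transporter genes compared and reported (horizontal axis), with genes in order of their ratio (vertical axis). Points are ratios with the 95% counting interval of 1 library per group, colours are families, filled points are the 6 called genes and dashed lines mark a fold of 2. Slc7a8 stands highest at 1.99 and Slc6a2 lowest at -1.63.

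Levels of different genes were compared per length, as TPM, the share of each library's length-corrected counts. A few carriers made up most of the transporter RNA in both libraries. The 5 members with the highest mean TPM were Slc3a2, Slc38a10, Slc38a2, Slc6a6 and Slc7a2, which together took 83.0% of the TPM of all 63 genes in control colonies and 81.1% with TNF-α. Slc3a2 alone took 42.3% and 40.6%. None of these 5 was called, and their log2 ratios ran from -0.53 for Slc6a6 to 0.14 for Slc38a2.

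**Figure D2:**
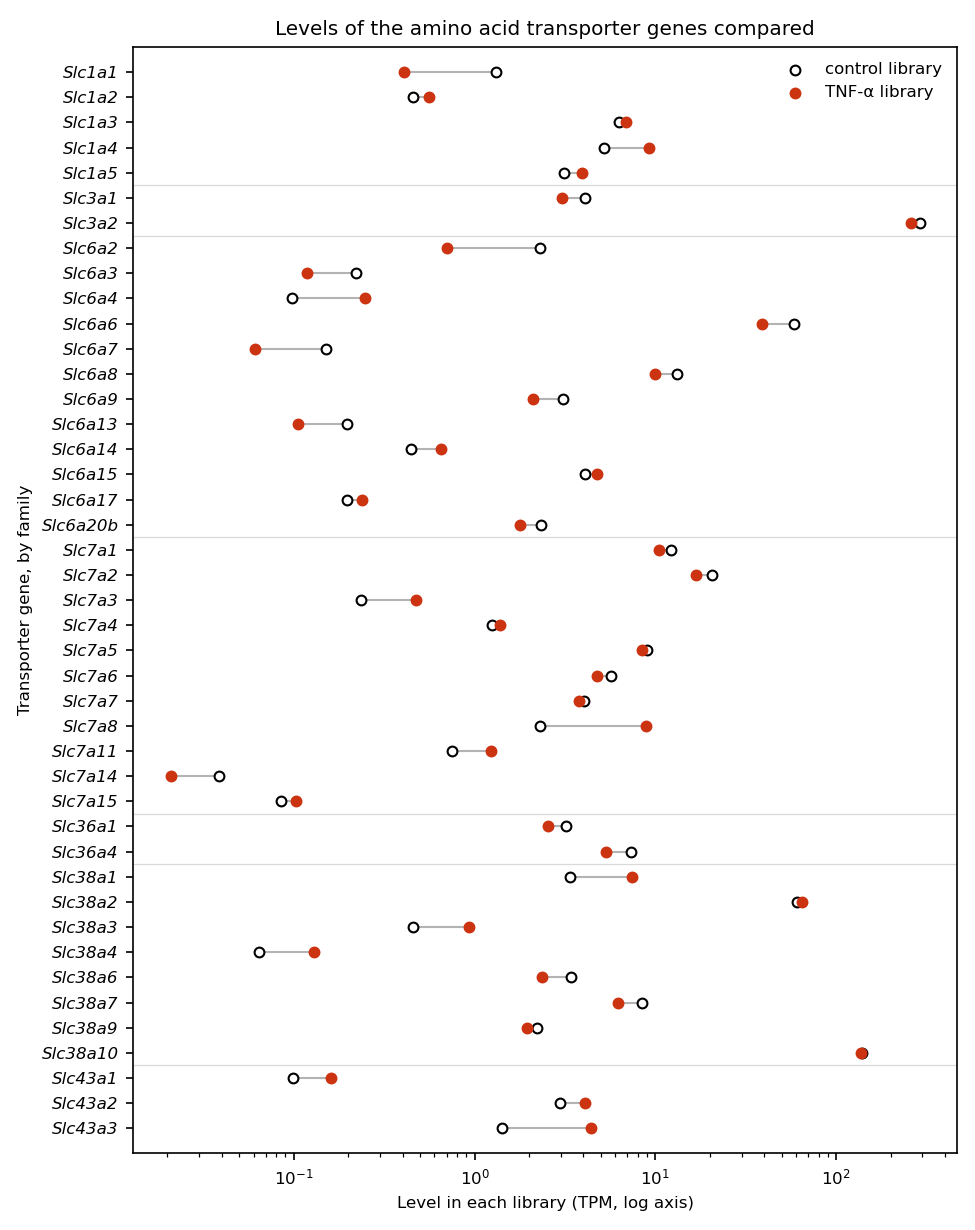
Level of each transporter gene compared and reported, in TPM on a log axis (horizontal), by family (vertical, grey lines between families). Open points are the control library and red points the TNF-α library. Levels run from 0.0208 TPM for Slc7a14 to 289 TPM for Slc3a2, and the pairs lie farthest apart for Slc7a8, Slc6a2, Slc43a3 and Slc1a1.

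Among the heteromeric exchangers, 1 light chain gene and neither heavy chain gene was called. Slc3a2 encodes the heavy chain 4F2hc (CD98; chromosome 19, 8706882 to 8723369, in GRCm38 like all positions given here). It had 16122 counts in control colonies and 17815 with TNF-α. Its levels of 289 and 259 TPM gave a log2 ratio of -0.12 (95% interval -0.15 to -0.08). The control library was slightly the higher of the 2 after scaling, far inside the 2-fold threshold. Slc3a1, which encodes the other heavy chain, rBAT, had 148 and 138 counts, which gave a log2 ratio of -0.36 (95% interval -0.71 to -0.02). It shares 26.4% of its exon bases with Prepl on the opposite strand, so its reads are uncertain where counting ignored the strand.

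Slc7a8, which encodes LAT2, a light chain exchanging small and large neutral amino acids, lies on chromosome 14 from 54722216 to 54781886. It had 146 counts in control colonies and 702 with TNF-α. These are 2.29 TPM (95% Poisson interval 1.94 to 2.70) and 8.92 TPM (8.27 to 9.60), and the intervals did not overlap. Its log2 ratio of 1.99 (95% interval 1.75 to 2.27), a fold of 3.98, was the largest of the 44 members. None of its exons overlapped another gene of the table.

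Slc7a5, which encodes LAT1, the leucine carrier of growing cells, lies on chromosome 8 from 121881150 to 121907694 and had 527 and 613 counts. Its log2 ratio was -0.04 (95% interval -0.21 to 0.13), so no difference was detectable at this depth and the interval leaves out a fold of 1.5. In the control library Slc7a5 had the highest level of the light chains, at 8.999 TPM against 2.29 TPM for Slc7a8. In the TNF-α library the levels were 8.47 TPM (95% Poisson interval 7.81 to 9.17) for Slc7a5 and 8.92 TPM for Slc7a8, and their intervals overlapped. The share of Slc7a8 in the summed light chain TPM went from 10.5% to 32.7%.

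Slc7a11, the gene of xCT, lies on chromosome 3 from 49892526 to 50443614. It had 164 counts without TNF-α and 335 with it, or 0.746 and 1.23 TPM. Its log2 ratio of 0.76 (95% interval 0.50 to 1.05), a fold of 1.70, was above 0 and under the 2-fold threshold, so it was not called. The promoter with the paired ATF4 letters shown above is that of this gene.

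The other light chains were called in neither direction. Slc7a6 and Slc7a7, which encode light chains exchanging cationic for neutral amino acids, had 410 and 209 counts in the control library and 426 and 243 in the TNF-α library. Their log2 ratios were -0.20 (interval -0.40 to -0.01) and, respectively, -0.04 (interval -0.32 to 0.23). Slc7a15, a light chain gene with 4 and 6 counts, had an interval from -1.75 to 2.59, too wide for a statement. Slc7a9, Slc7a12 and Slc7a13 had 0 counts in both libraries and Slc7a10 had 2 and 0 counts. In sum the 10 light chains reached 21.9 TPM in the control and 27.3 TPM with TNF-α, and Slc3a2 stood at 13.2 and 9.48 times that sum.

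**Figure D3:**
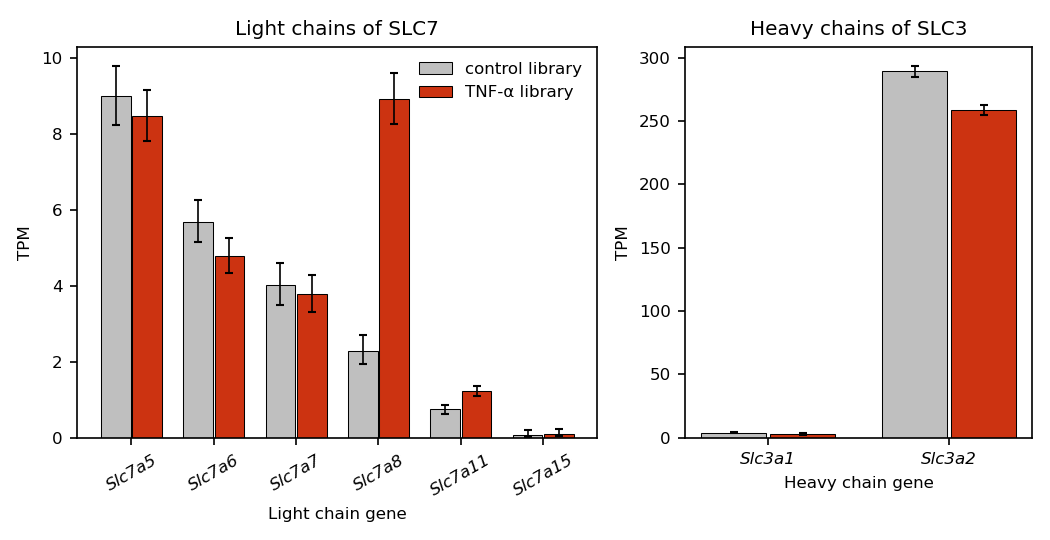
TPM of the 6 light chain genes compared (left) and the 2 heavy chain genes (right), with grey bars for the control library and red bars for the TNF-α library. Bars are single libraries and error bars are 95% Poisson intervals of the counts. Slc7a8 stands at 2.29 and 8.92 TPM, while Slc7a5 stands at 8.999 and 8.47 TPM.

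The cationic type of SLC7 carries arginine, lysine and ornithine without a heavy chain. Slc7a1, the housekeeping arginine carrier CAT1, had 2230 counts in the control library and 2368 with TNF-α, a log2 ratio of -0.17 (95% interval -0.26 to -0.09). Slc7a2, the carrier CAT2 and the SLC7 gene with the highest level (20.7 and 16.7 TPM; chromosome 8, 40862396 to 40922308), had 2981 and 2982 counts and thus a log2 ratio of -0.26 (95% interval -0.33 to -0.19). Both intervals lay below 0 and well inside a fold of 1.5. Slc7a3, with 14 and 35 counts, stood at 0.97 (95% interval 0.13 to 2.07) just under the threshold. Slc7a4 and Slc7a14, relatives whose transport is less well understood, were not called, with 78 and 6 counts in the control library and 108 and 4 with TNF-α, and Slc7a4 shares 13.9% of its exon bases with P2rx6 on the opposite strand.

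The sodium-coupled neutral carriers of SLC38 held 2 of the 4 genes called higher. Slc38a1, which encodes the glutamine carrier SNAT1 and lies on chromosome 15 from 96571418 to 96642913, had 446 counts in the control library and 1222 with TNF-α. Its levels of 3.37 and 7.46 TPM gave a log2 ratio of 1.19 (95% interval 1.04 to 1.35). The whole interval lay above a fold of 2, with its lower end close to that fold. That end would be lower if reads of a pair were counted separately. Slc38a3, the glutamine carrier SNAT3 on chromosome 9 (107650634 to 107669530), had 38 and 96 counts and thus a log2 ratio of 1.04 (95% interval 0.52 to 1.66). Its interval crosses the threshold, and with a prior count of 5 it was not called.

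Slc38a2, which encodes SNAT2, the carrier induced when amino acids run short, stood at a far higher level than Slc38a1. It had 4434 counts in the control library and 5867 with TNF-α, or 60.7 and 65.0 TPM. The log2 ratio of 0.14 (95% interval 0.09 to 0.20) was above 0 and small. Slc38a10, a member abundant in many tissues, had 14112 and 17141 counts, which gave a log2 ratio of 0.02 (95% interval -0.01 to 0.05). The lysosomal carriers Slc38a9 and Slc38a7 stood at log2 ratios of -0.14 (interval -0.36 to 0.09) and, respectively, -0.38 (interval -0.56 to -0.21). Slc38a6 stood at -0.48, and Slc38a4, with 4 and 10 counts, had an interval that held 0.

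In SLC43, all 3 genes had ratios above 0. Slc43a3, a carrier of purine nucleobases and not of amino acids, lies on chromosome 2 from 84936579 to 84958509. It had 100 counts in the control library and 383 with TNF-α, a log2 ratio of 1.66 (95% interval 1.36 to 2.01), and was called higher. Slc43a2, which encodes LAT4, a facilitated carrier of large neutral amino acids, had 471 and 805 counts, which gave a log2 ratio of 0.51 (95% interval 0.35 to 0.68). Its relative Slc43a1 (LAT3) was rarely counted, with 9 and 18 counts. Neither of these was called, and 9.18% of the exon bases of Slc43a2 are shared with Gm45606.

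Within SLC1, the gene of a glutamate carrier was lower and those of the neutral exchangers were above 0. Slc1a1, which encodes the glutamate and cysteine carrier EAAT3, lies on chromosome 19 from 28835049 to 28913960. It had 128 counts in the control library and 49 with TNF-α, a log2 ratio of -1.60 (95% interval -2.15 to -1.16), and was called lower. It shares 42.6% of its exon bases with 4430402I18Rik on the opposite strand, which had 111 and 62 counts, so reads of the pair cannot be told apart where counting ignored the strand. The glial type carriers Slc1a3 and Slc1a2 stood at 0.17 (852 and 1149 counts) and 0.33 (95 and 144 counts). Slc1a4, the neutral exchanger ASCT1, had 5.18 TPM in the control and 9.17 TPM with TNF-α, beside 6.32 and 6.89 TPM for Slc1a3. Slc1a4 had 321 and 703 counts, which gave a log2 ratio of 0.87 (95% interval 0.68 to 1.07), under the threshold. Slc1a5, the glutamine exchanger ASCT2, had 207 and 319 counts, which gave a log2 ratio of 0.36 (95% interval 0.11 to 0.62).

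The SLC6 family, which is best known for neurotransmitter uptake, leaned below 0. Of its 13 genes compared, 9 were below 0, and the median log2 ratio was -0.49. Slc6a2, the norepinephrine transporter gene on chromosome 8 (92960079 to 93001667), had 228 counts in the control library and 87 with TNF-α. Its log2 ratio of -1.63 (95% interval -2.02 to -1.29) was the lowest of the 44 members and was called. Slc6a6, the taurine carrier and the member of the family with the highest level, had 7780 and 6462 counts, or 58.3 and 39.1 TPM. Its log2 ratio was -0.53 (95% interval -0.58 to -0.48) and the interval did not reach 0. The creatine carrier Slc6a8 (1086 and 1008 counts) stood at -0.37, and the glycine carrier Slc6a9 (249 and 211 counts) at -0.49, though Slc6a9 shares 27.8% of its exon bases with Ccdc24 on the opposite strand.

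The neutral amino acid type of SLC6 was close to even in sum, with 611 counts in control colonies and 732 with TNF-α (log2 ratio of the sums 0.00088, 95% interval -0.16 to 0.16). Slc6a15 had 236 and 339 counts, and Slc6a20b had 316 and 299 counts with 21.1% of its exon bases shared with Sacm1l. Sacm1l lies on the opposite strand and had 3925 and 4053 counts. Reads of Slc6a20b, which are part of the sums above, are therefore uncertain where counting ignored the strand. Slc6a14 had 24 and 44 counts and Slc6a17 had 32 and 48. The serotonin transporter gene Slc6a4 passed a fold of 2 with 7 and 22 counts and thus a log2 ratio of 1.195 (95% interval 0.12 to 2.86), and did not pass the test on the reads. Slc6a3, Slc6a7 and Slc6a13 each had 12 counts or fewer in each library, with ratios from -0.93 to -0.66 and intervals that held 0.

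Both proton-coupled SLC36 genes compared were below 0 and were not called. Slc36a4 had 759 counts in the control library and 683 with TNF-α, a log2 ratio of -0.41 (95% interval -0.56 to -0.26). Slc36a1, the lysosomal carrier PAT1, had 284 and 279 counts and thus a log2 ratio of -0.28 (95% interval -0.53 to -0.04). The relatives Slc36a2 and Slc36a3 had 2 and 3 counts in the control library and 0 with TNF-α.

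The remaining 19 members had fewer than 10 counts and no ratio is given for them. Besides the light chains named above, Slc1a7, Slc6a5, Slc6a16, Slc6a18, Slc38a8 and Slc38a11 had 0 counts in both libraries. A count of 0 allows a level of up to 3 counts, which is 0.0675 CPM (control) or 0.0561 CPM (TNF-α). Slc1a6, a glutamate carrier of the brain, had 6 counts in the control and 2 with TNF-α. Slc6a11, Slc6a12, Slc6a19, Slc6a20a, Slc6a21 and Slc38a5 had at most 2 counts in either library. The kidney and gut carriers Slc6a18, Slc6a19 and Slc7a9 were thus at or near 0.

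Genes that sense or use amino acids were set beside the transporters as 10 further lists. Their calls are to be read beside the shares of all 20771 genes compared, 6.89% called higher and 5.53% lower. No list was tested as a set. Of 28 genes of the amino acid response, which is run by the transcription factor ATF4 and counts Slc7a11 among its known targets, 0 were called higher and 1 was called lower, Gdf15. The list median was 0.19, with 20 genes above 0. Atf4 itself had 6323 counts in the control and 8522 with TNF-α (log2 ratio 0.17, 95% interval 0.12 to 0.22), and the highest gene was Vldlr at 0.87. Of 20 aminoacyl-tRNA synthetases 0 were called, and they ran from -0.03 for Sars to 0.60 for Kars.

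Among 18 glutathione genes and NRF2 targets, 0 were called higher and 2 lower, and the median was -0.15. The called genes were Ggt1, which breaks down extracellular glutathione (288 and 146 counts, log2 ratio -1.23), and Osgin1, the lowest of the list (156 and 68 counts, log2 ratio -1.43). Gclc and Gclm, which encode the enzyme that uses cysteine in the first step of glutathione synthesis, stood at -0.45 (interval -0.52 to -0.37) and, respectively, -0.33 (interval -0.41 to -0.24). These were among the 11 genes of the list below 0, while Slc7a11 stood at 0.76. The 7 genes above 0 included Gsr at 0.31, Srxn1 at 0.28 and Gpx4 at 0.20. The highest gene was Cd44 at 0.96, whose product is known to bind and steady xCT at the membrane and which was not called.

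In arginine, proline and polyamine metabolism, 2 enzyme genes that use arginine were called higher. Of its 26 genes compared, 2 were called higher and 0 lower, beside 6.89% and 5.53% of all genes. The median was 0.12 and the lowest value -0.81 for Aldh4a1. Arg1, which encodes arginase 1, had 4710 counts in the control library and 14910 with TNF-α, or 202 and 517 TPM. Its log2 ratio was 1.40 (95% interval 1.36 to 1.45), while the arginine carriers Slc7a1 and Slc7a2 stood at -0.17 and -0.26. Slc7a3, also of the cationic type, stood at 0.97 with 14 and 35 counts. Nos2, the inducible nitric oxide synthase that also uses arginine, had 6 and 56 counts. Its log2 ratio of 2.64 (95% interval 1.75 to 4.47) was the highest of the list.

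In glutamine, glutamate and aspartate metabolism, 0 of 23 genes were called higher and 2 lower, beside 6.89% and 5.53% of all genes. The median was -0.12. Glul, which encodes glutamine synthetase, fell from 9383 counts in the control library to 2172 with TNF-α, a log2 ratio of -2.37 (95% interval -2.44 to -2.30). The glutamine carrier genes Slc38a1 and Slc38a3 were called higher in the same libraries, Slc38a3 from 38 and 96 counts. The glutamine exchanger gene Slc1a5, at 0.36, was not called. Within SLC38, neither were Slc38a2 at 0.14 (60.7 and 65.0 TPM) and Slc38a7 at -0.38. A link between these values and that of Glul was not tested. Gpt, an alanine transaminase gene, had a log2 ratio of -1.05, and the highest gene, Gfpt2, had 0.84. In branched-chain amino acid breakdown, 1 of 22 genes was called higher and 0 lower, with a median of -0.13. That gene was Bcat1, the cytosolic transaminase of leucine, isoleucine and valine, with 39 and 205 counts, which gave a log2 ratio of 2.08 (95% interval 1.63 to 2.67), and the lowest was Pcca at -0.74.

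Of 14 tryptophan and kynurenine genes compared, 1 was called higher and 2 lower, beside 6.89% and 5.53% of all genes. The median was 0.12. Tph1 was highest at 1.43 (20 and 68 counts), Cyp1a1 lowest at -3.84 (96 and 6 counts), and Maob was called lower at -1.14 (316 and 170 counts). Its relative Maoa, which like Maob breaks down monoamines, had 2111 and 3035 counts with a ratio of 0.26 (interval 0.18 to 0.34) and was not called. Of 35 genes of lysosomal amino acid sensing by mTORC1, 0 were called higher and 1 lower, Rragb at -1.76 (103 and 35 counts). The median was -0.02, and the highest gene was Lamtor5 at 0.49. Of 22 amino acid and peptide transporters outside the 7 families, 1 was called higher, the mitochondrial glutamate carrier Slc25a18 at 1.86, and 1 lower, the lysosomal cystine exporter Ctns at -1.06 (2730 and 1569 counts), with a median of -0.23. Of 13 accessory and trafficking partners 0 were called, with a median of -0.06 and the highest value for Cd44.

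**Figure D4:**
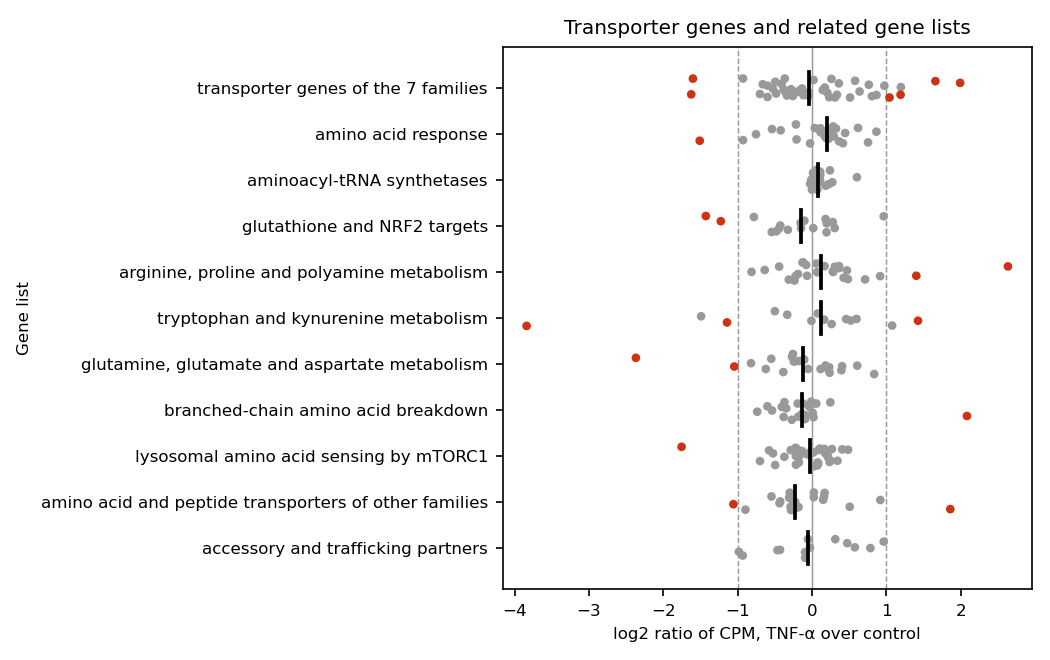
Log2 ratio of CPM, TNF-α over control (horizontal axis), of the 44 transporter genes compared and the genes of 10 related lists (vertical axis, 1 point a gene, spread vertically for sight). Red points are called genes, black bars are list medians and dashed lines mark a fold of 2. The medians lie between -0.23 and 0.19, with Glul at -2.37 and Nos2 at 2.64 among the genes far from 0.

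The labelled cell type was checked against its markers. Calls in the marker lists stand beside 6.89% of all genes compared called higher and 5.53% called lower. The basal genes Krt14 (8276 and 7574 TPM in control and TNF-α), Krt5 and Trp63 were expressed in both libraries, and so was the luminal gene Krt8 (1896 and 1715 TPM). Of 14 basal markers 0 were called higher and 2 lower, Lgr5 at -1.20 and Oxtr at -1.19. The contractile genes Cnn1 and Myh11 stood at -0.74 and -0.52, while 8 of the 14 were above 0. The list median was 0.10, and the list summed to 13349 and 12583 CPM. Of 14 luminal markers 1 was called higher, Cd14 at 1.19, and 3 lower, Pgr, Esr1 and Prlr. The list median was -0.70, with sums of 4837 and 3889 CPM. Of 10 fibroblast markers 2 were called higher, Dpt (20 and 622 counts) and Dcn, with a median of 0.10 and sums of 548 and 555 CPM. Of 3 adipocyte markers compared out of 7, 2 were called lower, Lep and Pparg, with a median of -2.36 and sums of 9.87 and 3.37 CPM, and Plin1 was at 0 in both libraries. Leukocyte and macrophage markers (8 of 14 compared, sums of 8.95 and 7.10 CPM, median -0.41, with Cd3e, Nkg7 and Ms4a1 at 0) and endothelial markers (7 of 8 compared, sums of 9.20 and 8.58 CPM, median -0.18) had 0 calls. Of 9 neural and glial markers compared out of 10, Tubb3 was called higher, with a list median of 0.14 and sums of 172 and 134 CPM. Sox10 alone held 7235 of the 7636 counts of this list in the control and 6603 of 7161 with TNF-α. The part of these shifts in the transporter values was not tested.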

How the data were processed

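RNA-seq libraries of 1 control and 1 TNF-α culture were analysed. The authors deposited 1 table of raw read counts per gene with exon coordinates and summed exon length. The aligner, counting tool, annotation and strand setting are not given in the sources used here, and the submitters' processing notes name GRCm38 and mm10. Of the 63 members, 53 had the same chromosome, start and end in GENCODE M21 (GRCm38), and 13 shared exon bases with other genes of the table. Even counts were in excess (2172 control genes with 2 counts, 618 with 1), and whether reads of a pair were counted separately was not tested.

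TMM factors came from edgeR 4.0.16 under R 4.3.3, over the 20771 genes with at least 10 counts, giving a size ratio of TNF-α to control of 1.197. A call needed a fold over 2 and a Benjamini-Hochberg adjusted p under 0.05, over all genes compared, from the two-sided exact binomial test of a gene's reads. No p-value is printed, because 1 library per group leaves no spread for a quasi-likelihood fit. A count of 10 is 0.225 CPM in the control and 0.187 CPM in the TNF-α library. Ratio intervals are Clopper-Pearson and TPM intervals exact Poisson, both at 95%. The calling step was tested on simulated data. Any member may be named, and from the 17 other lists the called and extreme genes and genes of known roles were named, some (such as Gclc, Gclm, Atf4, Maoa and the marker genes) chosen after their values were seen. Values of a few genes are not reported here, though they stay in the counts, sums and medians. Members and lists were chosen with earlier results of these data known. Tests ran in Python 3.11.15 (scipy 1.17.1, with pandas 2.3.3 for tables, statsmodels 0.14.6 for the adjustment) and plots in matplotlib 3.10.9. Alternatives were other scalings (DESeq2 version 1.42.0 size factors among them), filters, prior counts, folds and assumed spreads, and counts divided by 2.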

Additional observations from a re-analysis of the deposited data

How the results depend on the processing

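No paired analysis was possible because each group had 1 library, and no library could be left out. Scaling by DESeq2 size factors, upper quartiles or totals alone, both other filters and counts divided by 2 left 4 members called higher and 2 lower. With the scalings, 6.86% to 6.88% of all genes were called higher and 5.54% to 5.58% lower. The shares were 5.53% and 4.57% from 1 count on, where 54 members were compared. They were 5.36% and 4.22% from 1 CPM on (32 members), and 5.33% and 4.10% with halved counts (38 members). A prior count of 0.5 gave 5 higher (7.02% of all genes), no test on the reads also 5 (8.56%) and a prior count of 5 gave 3 (6.60%). Each of these settings gave 2 lower, beside 5.68%, 6.62% and 5.20% of all genes. A fold of 1.5 gave 7 higher, adding Slc1a4, Slc7a3 and Slc7a11, beside 11.3% of all genes, and 2 lower, beside 9.57%. A fold of 4 gave 0 higher and 0 lower, beside 2.60% and 1.65% of all genes. edgeR's exact test with an assumed coefficient of variation of 0.2 gave 2 higher (Slc7a8 and Slc43a3) and 2 lower (Slc6a2 and Slc1a1), beside 3.59% and 2.52% of all genes. A value of 0.4, stricter by construction, gave 0 higher and 0 lower, beside 0.438% and 0.260% of all genes. The median of the members stayed between -0.15 and -0.01 over 8 alternatives. Each of the 334 single values under these 8 alternatives stayed within its counting interval. This is a weak check, because the filters leave a ratio unchanged and the scalings and halved counts hardly move it. The spread between cultures was not measured.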
